A study of Rattus norvegicus with 4 samples.

Results

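Genes that carry cholesterol into granulosa cells, hold it there or send it out were followed by name. These 9 were Scarb1, Vldlr, Cd36, Abca1, Abcg1, Npc1, Npc2, Soat1 and Lipe, and every probe set whose only annotated symbol was among them was taken. That gave 19 probe sets for 8 of the 9 genes, out of 20826 probe sets with 1 symbol for 14218 genes on the array. No probe set was paired with Npc1 in the probe table used, so Npc1 was not analysed here. Of the 19 probe sets, 18 passed the filter on dim signals, and each of the 8 genes kept at least 1.

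The cells were granulosa cells of immature female Sprague Dawley rats, 27 days old, primed for 48 h with PMSG, a gonadotropin that makes follicles grow. Runx2 siRNA or a universal negative control siRNA was transfected, each at 20 nM. Both groups were cultured for a further 48 h in 10 µM forskolin, a drug that raises cAMP and so stands in for the gonadotropin signal. Each siRNA group held 2 arrays, 1 per culture, titled replicate 1 and replicate 2. The comparison bears on transcripts that differ between Runx2 siRNA and control siRNA in forskolin. All 4 arrays were in forskolin, so a response to forskolin cannot be read here. No probe set was paired with Runx2 either, so how far it was knocked down cannot be read from these arrays and the groups are named by their labels. How many animals each culture held was not given in the sources used here, so p-values measure only the spread between these 4 arrays.

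Granulosa cells turn cholesterol into steroids, and after the ovulatory signal into progesterone in particular. Cholesterol reaches them on lipoproteins. The receptor encoded by Scarb1 takes cholesterol esters from high-density lipoprotein without swallowing the particle, which in rat ovary is the main route. Other lipoprotein receptors swallow the particle whole, and Npc1 and Npc2 then hand its cholesterol out of the lysosome. Soat1 esterifies surplus cholesterol for storage in droplets, Lipe frees it again, and Abca1 and Abcg1 pump it out to lipoproteins. Genes of export are known targets of the liver X receptors, sensors of oxidised cholesterol encoded by Nr1h2 and Nr1h3.

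The reference promoters of Abca1 and Cd36 are shown. Abca1 was chosen because its brightest probe set was lower on both Runx2 siRNA arrays than on both control arrays. Cd36 was chosen for the largest difference by replicate number among the 8. The sequences are the 250 bases before the annotated start, 5′ to 3′ on the gene's strand, from RefSeq on the GRCr8 build. Abca1 lies at chr5:72596474-72596723 on the minus strand and Cd36 at chr4:18246332-18246581 on the plus strand. Capitals mark the motifs found.
Abca1: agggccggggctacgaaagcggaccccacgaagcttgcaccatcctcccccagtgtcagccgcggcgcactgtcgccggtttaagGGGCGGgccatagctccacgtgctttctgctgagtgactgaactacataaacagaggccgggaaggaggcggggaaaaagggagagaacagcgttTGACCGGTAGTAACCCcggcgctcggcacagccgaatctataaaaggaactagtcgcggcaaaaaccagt
Cd36: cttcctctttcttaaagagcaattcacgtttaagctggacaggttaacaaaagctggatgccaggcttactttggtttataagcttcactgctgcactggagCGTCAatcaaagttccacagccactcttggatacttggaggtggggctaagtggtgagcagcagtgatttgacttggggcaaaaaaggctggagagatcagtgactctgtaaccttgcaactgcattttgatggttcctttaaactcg

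In the Abca1 promoter the first capitals are a Sp box (GGGCGG, which 30.5% of the 33469 promoters in the table held). The second are a DR4, a direct repeat with 4 bases between its parts, of the kind that liver X receptors bind, 70 to 55 bases before the start. Its permissive pattern was written down after the Abca1 sequence had been seen, and 0.251% of all promoters held it. In the Cd36 promoter the capitals are a cAMP response core site (TGACG, reverse strand, in 18.2% of all promoters), 148 to 144 bases before the start. Promoters were found in the table for 6 of the 9 genes (Vldlr, Cd36, Abca1, Npc1, Npc2 and Soat1). Besides Abca1, the Sp box was in those of Vldlr, Npc1, Npc2 and Soat1, and besides Cd36 the cAMP core site was in that of Soat1. On either strand, 0 of the 6 held the Runx motif TGTGGT (14.5% of all promoters), the Nr5a motif CAAGGTCA (1.33%) or the sterol motif TCACNCCAC (0.974%). The planned search for liver X receptors used the core site AGGTCA, which also lies within the Nr5a motif. It was in 0 of the 6, Abca1 included, and in 14.1% of all promoters. A match is a description of letters, and the deposited values hold no measurement of binding.

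Values are MAS5 signals on a linear scale, which the authors had scaled to a common level on each array. Median signal over all probe sets was 129 to 153 per array. Array 2 of the Runx2 siRNA group differed from the others in the ratio of its 3′ over its 5′ actin signal, which reflects RNA integrity, at 1.71 against 1.42 to 1.45, while the same ratio for Gapdh was the lowest there, at 0.949 against 0.978 to 1.03. Its highest signal was 30500, against 18398 to 19702. Of 12 granulosa markers 11 had a probe set; the inhibin subunit Inha lay between 12500 and 17693 and the transcription factor Foxl2 between 5103 and 6569, while Amh, at 30.9 to 68.0, was below the filter. Differences below are on the log2(signal + 16) scale, as Runx2 siRNA minus control siRNA unless stated. "Past the test" means an adjusted p under 0.05 by limma over all 18625 probe sets tested.

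None of the 8 genes was past the test for the siRNA (adjusted p from 0.346 to 0.887 by limma for the brightest probe set of each), and neither were any of the 18625 probe sets (0.00%), of which 11.9% had an unadjusted p under 0.05. At an unadjusted p under 0.05, 3 of the 8 were lower and 0 higher, where 5.49% and 6.45% of all probe sets tested were. These were Scarb1, Abca1 and Abcg1, and they were also the 3 genes with both Runx2 siRNA arrays below both control arrays, where 18.5% of all probe sets were. Npc2 and Lipe were higher without overlap, where 28.8% of all probe sets were. In all 5 of 8 genes were free of overlap, beside 47.4% of all probe sets, which is near that background. The median difference over the 8 genes was 0.02, beside 0.05 over all probe sets, so the list as a whole had no common direction. Each gene kept its sign in both same-numbered pairs, 4 lower and 4 higher, where 28.3% of all probe sets were lower in both pairs, 41.6% higher in both and 30.1% opposite. By replicate number 0 of the 8 were past the test, 2 of the 8 (Cd36 and Vldlr) had an unadjusted p under 0.05 by limma, beside 7.27% of all probe sets, and 3 of 8 were without overlap, beside 37.7%.

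**Figure D1:**
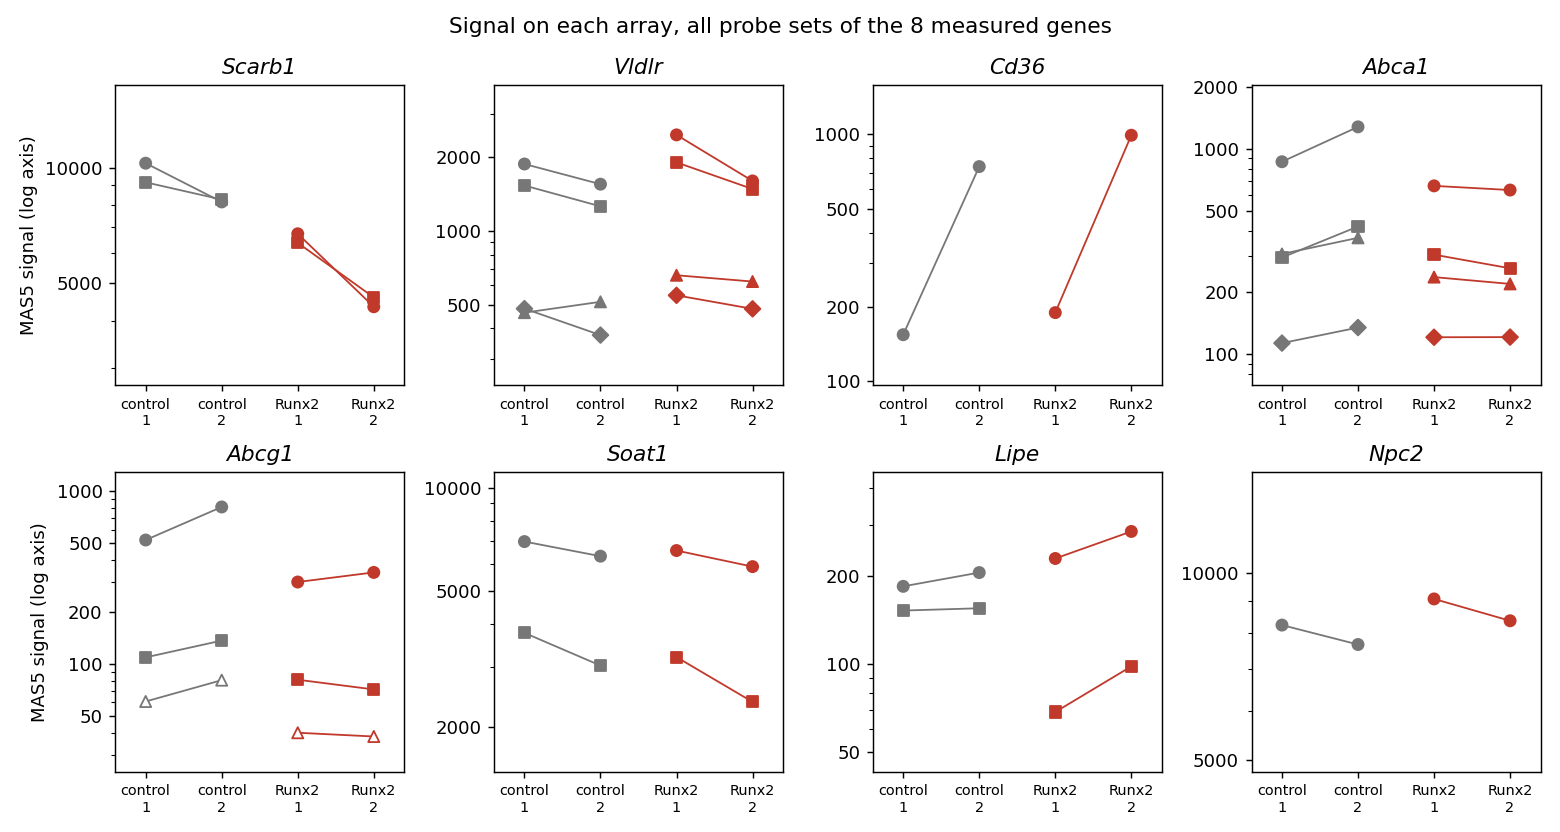
MAS5 signal (log axis) of every probe set of the 8 measured genes on the 4 arrays, control siRNA in grey and Runx2 siRNA in red, with a line joining the arrays of a group and a marker shape for each probe set; open markers are the Abcg1 probe set below the filter. The Scarb1 and Abcg1 probe sets and the brightest Abca1 probe set lie lower on both red arrays, whereas Cd36 differs between the array numbers within each group.

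Scarb1 was lower with Runx2 siRNA on both of its probe sets. Arrays 1 and 2 read 6734 and 4345 with Runx2 siRNA and 10287 and 8153 with control siRNA. The groups did not overlap, and the second array was the lower within each. The control mean was 1.66 times the Runx2 siRNA mean (9220 ± 1509 against 5540 ± 1689, SD, n = 2 arrays each). The log2 difference was -0.76 ± 0.24 (SE; adjusted p = 0.374 by limma), with -0.61 and -0.91 in the pairs numbered 1 and 2. The second probe set read 6378 and 4596 against 9173 and 8270, a difference of -0.68 ± 0.18. Between replicate numbers Scarb1 differed by -0.48 ± 0.33 (replicate 2 minus replicate 1; adjusted p = 0.798 by limma), smaller in size than by siRNA and with overlapping arrays. The siRNA difference was -0.44 when Runx2 siRNA array 2, with the high actin ratio, was left out.

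Vldlr, a receptor that binds very-low-density lipoprotein and also the signalling protein reelin, was read by 4 probe sets. The brightest gave 2470 and 1601 with Runx2 siRNA and 1878 and 1553 with control siRNA, and the groups overlapped. Its difference was 0.22 ± 0.23, 0.39 in the pair numbered 1 and 0.04 in that numbered 2. The other 3 probe sets lay at 0.27 ± 0.17, 0.38 ± 0.12 and 0.26 ± 0.17 (SE, adjusted p from 0.380 to 0.537 by limma). All 4 probe sets were thus higher by the mean and in each same-numbered pair, and 1 of the 4, at 659 and 621 against 464 and 513, had no overlap. Between replicate numbers the brightest differed by -0.45 ± 0.16 (adjusted p = 0.621 by limma), with both arrays numbered 2 below both numbered 1. Without the first Runx2 siRNA array its siRNA difference was -0.09.

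Cd36 encodes a scavenger receptor of the same class as that of Scarb1, which binds modified lipoproteins and carries long-chain fatty acids, and here it separated the replicate numbers rather than the siRNAs. Its single probe set read 189 with Runx2 siRNA and 154 with control siRNA on the arrays numbered 1. On those numbered 2 it read 992 and 740. The signal was 5.24 times as high in replicate 2 as in replicate 1 with Runx2 siRNA and 4.81 times with control siRNA. The difference by number was 2.23 ± 0.21 (SE, n = 2 arrays per number; adjusted p = 0.109 by limma), which missed the threshold, and 0.0107% of all probe sets passed it. Among the probe sets higher in replicate 2 it ranked at 12 by difference, and 14 of all 18625 (0.0752%) were at least 4-fold higher in replicate 2. Leaving out any 1 array gave 2.02 to 2.43. By siRNA, Cd36 differed by 0.34 ± 0.97 with overlapping groups, and by 0.27 and 0.41 in the same-numbered pairs. The SE of that difference holds the gap between numbers. The difference itself was -0.80 without the second Runx2 siRNA array and 1.49 without the first.

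**Figure D2:**
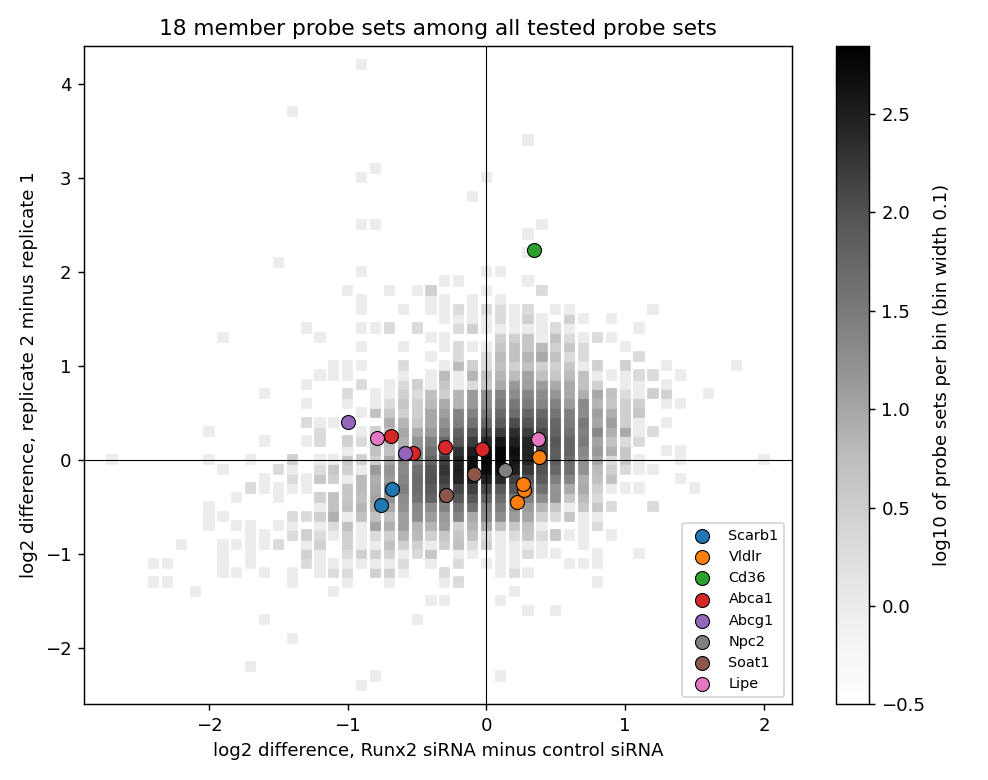
Log2 difference of each of the 18 tested member probe sets by siRNA (horizontal) and by replicate number (vertical), over all tested probe sets counted in bins 0.1 wide (grey shade). Cd36 lies at 0.34 and 2.23, far up the vertical axis, while the lowest of the Scarb1, Abca1, Abcg1 and Lipe probe sets lie to the left, from -0.69 to -1.00, and between -0.48 and 0.40 by number.

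Signals of marker genes of other cell types also differed by replicate number. Cd36 is also made by macrophages, endothelial cells and adipocytes. The 15 macrophage genes summed to a signal of 1371 and 1082 on the arrays numbered 1 (Runx2 siRNA, then control) and 2164 and 1661 on those numbered 2. Higher in replicate 2 were 11 of the 15, beside 9770 of all 18625 probe sets tested. Below the filter on dim signals were 9 of the 15. Among the 15, the lysozyme gene Lyz2 lay at 145 and 134 against 312 and 307. Itgam, at 2.62 to 8.10, was near the lowest signals on every array, and Ptprc, at 20.5 and 2.32 against 37.4 and 23.1, was below the filter on each. Theca and stroma genes summed to 1940 and 1550 against 2845 and 2786, with 8 of 10 higher in replicate 2, among them the smooth muscle gene Tagln at 84.3 and 47.9 against 401 and 400.

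The other lists were mixed. All 5 measured adipocyte genes were below the filter on dim probe sets (summed signal 125 and 125 against 260 and 196). Endothelial genes summed to 877 and 589 against 593 and 665, with 5 of 10 higher in replicate 2. Granulosa genes summed to 68389 and 62397 against 64780 and 52399, with 3 of 11 higher. Oocyte genes summed to 584 and 398 against 894 and 628, with 5 of 5 higher, and erythroid genes to 3512 and 3105 against 2019 and 1182, with 0 of 3 higher. Also below the filter were 7 of 10 endothelial, 4 of 5 oocyte and 3 of 10 theca and stroma genes. For granulosa and erythroid genes it was 1 of 11 and 1 of 3. By siRNA, 12 of 15 macrophage, 9 of 10 theca and stroma and 8 of 11 granulosa genes were higher with Runx2 siRNA by the mean. So were 6 of 10 endothelial, 5 of 5 oocyte, 2 of 5 adipocyte and 1 of 3 erythroid genes. Within the granulosa list the difference of largest size was downward, -1.34 ± 0.39 for Cyp19a1, and Cyp11a1 was also lower (-0.37 ± 0.16). Over all 18625 probe sets tested, 10825 were higher by siRNA and 9770 by number. With dim probe sets kept, the median difference rose from 0.05 to 0.10 by siRNA and from 0.01 to 0.05 by number. The part of other cells in the Cd36 values and in the siRNA differences was not tested. In such bulk RNA fewer cells of a type and less RNA per cell cannot be told apart.

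**Figure D3:**
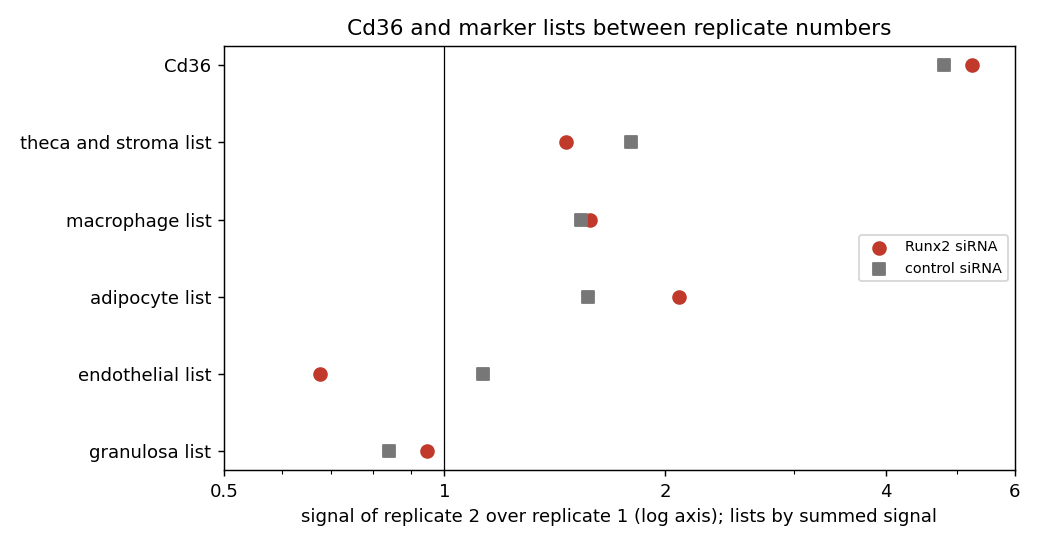
Signal of replicate 2 over replicate 1 (log axis) for Cd36 and for the summed signal of the marker lists, within the Runx2 siRNA group (red circles) and the control group (grey squares). Cd36 lies at 5.24 and 4.81, and the theca and stroma, macrophage and adipocyte lists lie between 1.47 and 2.09. The granulosa list lies at 0.947 and 0.840 and the endothelial list at 0.676 and 1.13. The oocyte and erythroid lists are not drawn.

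Both cholesterol exporters were lower with Runx2 siRNA. Abcg1, a transporter that loads cholesterol onto high-density lipoprotein, read 298 and 339 with Runx2 siRNA and 522 and 811 with control siRNA on its brightest probe set. The control mean was 2.09 times the Runx2 siRNA mean (667 ± 204 against 319 ± 28.8, SD, n = 2 arrays each). The difference was -1.00 ± 0.23 (SE; adjusted p = 0.346 by limma), the largest in size among the brightest probe sets of the 8 genes. The pair numbered 1 gave -0.78 and the pair numbered 2 gave -1.22. The second probe set gave 81.2 and 71.4 against 109 and 137 (-0.59 ± 0.23). Its Runx2 siRNA mean of 76.3 lay below 78.6, the limit used for dim probe sets, so it passed only through the control arrays. The third, below the filter and not tested, gave 40.1 and 38.1 against 60.8 and 80.8. All 3 probe sets were without overlap.

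Abca1, which passes cholesterol and phospholipid to apolipoprotein A1, read 661 and 631 with Runx2 siRNA and 866 and 1281 with control siRNA on its brightest probe set. The difference was -0.69 ± 0.20 (adjusted p = 0.364 by limma), with -0.38 in the pair numbered 1 and -1.00 in the pair numbered 2. Another probe set, at 238 and 220 against 308 and 369, also had no overlap (-0.53 ± 0.16). The remaining probe sets overlapped, at -0.30 ± 0.21 and -0.03 ± 0.20. The dimmest of the 4 was nearly level, at 121 and 121 against 113 and 135. The probe sets of Abca1 therefore shared a direction by the mean but not a size. Without the second control array the brightest stood at -0.42.

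Both exporters shared a further feature across the arrays, which Scarb1 did not. Within the control group the second array was the higher, by 0.62 for Abcg1 and 0.56 for Abca1 on the brightest probe sets, while within the Runx2 siRNA group the arrays differed by 0.18 and -0.07. For Scarb1 the second array was the lower in both groups, by -0.33 with control siRNA and -0.63 with Runx2 siRNA. The difference between the same-numbered pairs was -0.44 for Abcg1, -0.62 for Abca1 and -0.30 for Scarb1, and 1 array for each siRNA and number leaves no error for a test of it.

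Of the members for storage and lysosomal handling, Soat1 and Npc2 differed little by siRNA on their brightest probe sets. Soat1, the enzyme that esterifies cholesterol, read 6558 and 5886 with Runx2 siRNA and 6966 and 6314 with control siRNA, with overlap (-0.09 ± 0.12, adjusted p = 0.739 by limma). Its second probe set lay at -0.29 ± 0.19, also with overlap. Both probe sets were lower in replicate 2 without overlap, the brightest by -0.15 ± 0.12. Npc2, the soluble lysosomal protein that binds cholesterol and passes it to Npc1, read 9077 and 8374 with Runx2 siRNA and 8242 and 7671 with control siRNA. Its difference of 0.13 ± 0.11 was 0.14 and 0.13 in the same-numbered pairs, but its groups overlapped after quantile or cyclic loess scaling, which left 1 of the 8 genes, Lipe, higher without overlap, against 2 here.

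Lipe, the hormone-sensitive lipase that frees cholesterol from its esters and is switched on by protein kinase A, gave no direction, since its probe sets went opposite ways without overlap in either. The brighter read 230 and 284 with Runx2 siRNA and 184 and 206 with control siRNA (0.37 ± 0.18, adjusted p = 0.468 by limma). The dimmer read 68.7 and 98.3 against 152 and 155 (-0.79 ± 0.23, adjusted p = 0.367). The same-numbered pairs were 0.29 and 0.44 for the former and -0.99 and -0.58 for the latter. The sequence that each probe set reads is not given in the sources used here.

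A list of 84 further genes of these routes had 58 tested genes, of which 37 were lower and 21 higher with Runx2 siRNA by the mean, beside 41.9% lower over all probe sets. None passed the test, 4 were lower and 3 higher at an unadjusted p under 0.05 by limma, beside 11.9% of all probe sets in either direction, and 26 of 58 were without overlap, beside 47.4%. The median difference was -0.10, beside 0.05 over all probe sets.

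Among uptake genes 6 of 8 were lower and 2 higher, beside 41.9% lower over all probe sets tested, with a median of -0.16. Sort1, which encodes the sorting receptor sortilin, read 809 and 721 against 945 and 1057 (-0.38 ± 0.12). It was the 1 gene of the 8 without overlap (12.5%), beside 47.4% of all probe sets tested. Its second probe set lay at -0.48 ± 0.22. Lrp8, the receptor nearest in kind to Vldlr, read 2390 and 1759 against 1837 and 1391, with overlap (0.36 ± 0.20).

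Export genes were lower in 7 of the 8 tested, beside 41.9% of all probe sets, with a median of -0.13. Without overlap were 4 lower and 1 higher, beside 18.5% and 28.8% of all probe sets. A further 6 export genes were below the filter on dim signals, and with them 5 of 14 were higher by the mean. Apoe, the apolipoprotein that accepts exported cholesterol, read 759 and 1076 with Runx2 siRNA and 1203 and 2571 with control siRNA (-0.95 ± 0.38, SE, adjusted p = 0.418 by limma). Like Abcg1, it was highest on the second control array. Abca5, a lysosomal transporter of the Abca family, lay at 260 and 145 against 318 and 326 (-0.68 ± 0.28). Lcat, which esterifies cholesterol on lipoproteins, was the 1 of the 8 tested that lay higher, at 282 and 224 against 205 and 139 (0.53 ± 0.24).

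Transport genes within the cell were lower in 11 of 18 and higher in 7, with a median of -0.11. Gramd1b, which moves cholesterol from the plasma membrane to the endoplasmic reticulum, read 723 and 403 against 1369 and 868 (-0.99 ± 0.34), with a second probe set at -0.46 ± 0.42. Stard4, a soluble sterol carrier, was nearly as far below on its brightest probe set (-0.98 ± 0.36), and its second lay at -0.78 ± 0.31. Its dimmest went the other way, at 0.60 ± 0.19. Osbpl1a, an oxysterol-binding protein of late endosomes, read 546 and 467 against 329 and 331 (0.59 ± 0.14, adjusted p = 0.346 by limma), and its other tested probe sets lay at 0.08 and 0.72. Lamp2, a lysosomal membrane protein, at -0.40 ± 0.11, and Lipa, the lysosomal acid lipase, at 0.40 ± 0.15, were the other members with an unadjusted p under 0.05, and were named after their values had been seen. Star, which brings cholesterol into the mitochondrion for steroid synthesis, differed by -0.19 ± 0.12 at signals of 12682 and 13376 against 14279 and 15538.

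Storage genes were split evenly, 6 lower and 6 higher of 12 with a median of -0.01, and on the brightest probe sets none had an unadjusted p under 0.05 by limma. On these the largest differences without overlap were 0.32 ± 0.22 for Dgat2, which makes triglyceride, and -0.17 ± 0.11 and -0.16 ± 0.11 for the lipase Pnpla2 and its activator Abhd5. A second Dgat2 probe set lay at 0.00. Plin2, a coat protein of lipid droplets, lay at -0.15 ± 0.18 with overlap on its brightest probe set, but its second read 197 and 190.5 against 307 and 313, without overlap (-0.63 ± 0.15, adjusted p = 0.346 by limma).

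Of the regulators, 7 of 12 were lower and 5 higher, with a median of -0.12. The liver X receptor genes differed in direction. Nr1h3 read 58.1 and 102 with Runx2 siRNA against 115 and 132 with control siRNA (-0.58 ± 0.29, adjusted p = 0.472 by limma), and its first Runx2 siRNA value lay below 78.6, the limit used for dim probe sets. Nr1h2 read 1649 and 1575 against 1550 and 1535 (0.06 ± 0.10). Pparg, a nuclear receptor that senses fatty acids and acts on Cd36 in macrophages, lay at 806 and 635 against 562 and 524 (0.39 ± 0.15). Between replicate numbers it differed by -0.22 ± 0.21 (replicate 2 minus replicate 1), and Cd36 by 2.23. Rxrb, a partner of these receptors, lay at 0.27 ± 0.18, and Srebf2, the factor that switches on cholesterol synthesis and uptake, at -0.13 ± 0.19.

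**Figure D4:**
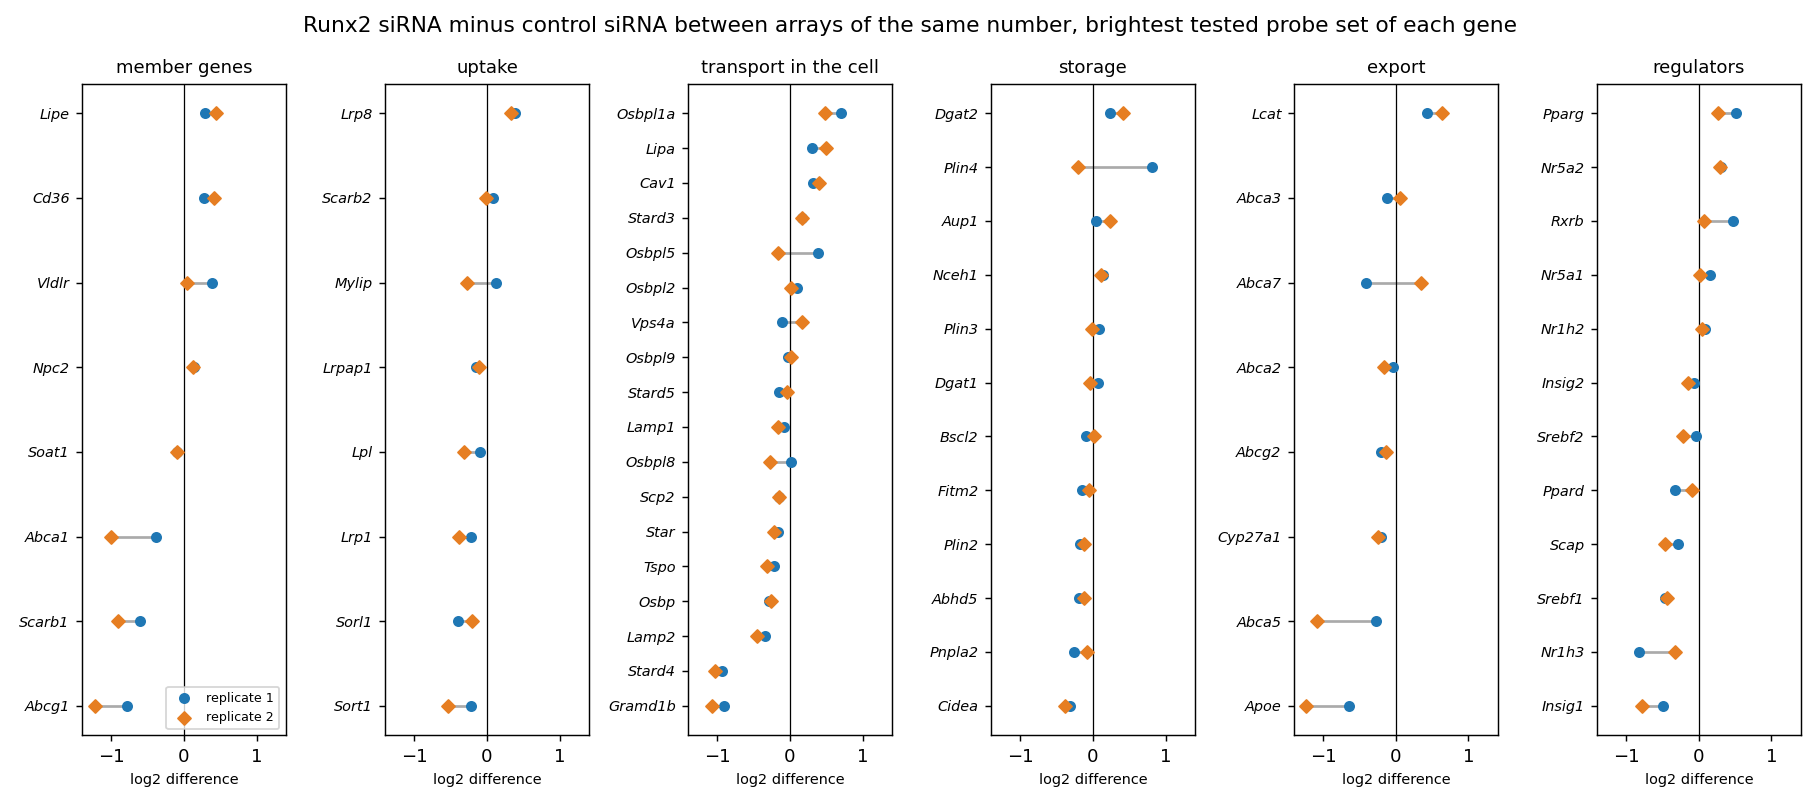
Log2 difference, Runx2 siRNA minus control siRNA, between the arrays numbered 1 (blue circles) and those numbered 2 (orange diamonds) for the brightest tested probe set of each member gene and of each of the 58 further genes, by role. Abcg1, Scarb1, Abca1, Apoe, Gramd1b and Stard4 lie left of 0 in both pairs, and each of these 6 lies farther left in the pair numbered 2.

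Other genes whose 4 arrays ran most like those of Scarb1, Vldlr and Abca1 were found by Euclidean distance of the log2 values, each centred on its own mean over the 4 arrays. Nearest to Scarb1 were Elapor1, Dpy19l1 and Ap1s2, at distances of 0.05 to 0.06. Nearest to Vldlr were Sprtn, Rad54l2 and Gatad2a, at 0.02 to 0.07. Abca1 had no neighbour as close, with Nr4a2, C1r and Cd82 at 0.11 to 0.17. With 4 arrays and 14102 probe sets of 1 symbol to choose from, such likeness is a description of these arrays.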

How the data were processed

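The authors deposited array intensity as linear MAS5 signal. MAS5 is named by the submitters' processing notes, and its settings are not given in the sources used here. The mean of each array after trimming 2% at each end was 500, so the authors had scaled the arrays to a common level, which would hide a change in total RNA. Mismatch subtraction makes dim probe sets variable. Of 31099 probe sets 57 were controls and were left out. Probe sets in the lowest 40% of mean signal, below 78.6, were not tested, which left 18625. All 4 columns were tied to a sample.

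The tested scale was log2(signal + 16), which understates differences of dim probe sets, with limma 3.58.1 in R 4.3.3 (lmFit, eBayes with an intensity trend), two-sided, with 2 residual and 3.32 prior degrees of freedom and Benjamini-Hochberg adjustment. Runx2 siRNA was set against control siRNA, and replicate 2 against replicate 1, without a block. An exact permutation test of 2 against 2 cannot go below p = 0.333 and was not used. The limma script was tested on simulated data. A gene with several probe sets was counted by its brightest tested one. All 19 member probe sets matched a RefSeq gene identifier with the same symbol.

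Members, lists, motifs and tests were chosen with earlier results of these data known. Named were all members, and from each of the 5 pathway lists the genes past the threshold and the 3 largest differences without overlap, with Star, Apoe, Nr1h2, Nr1h3 and Srebf2 always. Another gene on that list is not reported here. Lrp8, Plin2, Lamp2, Lipa, Lyz2, Itgam, Ptprc, Tagln, Cyp17a1, Insl3, Rgs5, Cyp19a1, Cyp11a1, Inha, Foxl2 and Amh were named outside that rule. Alternatives changed the constant to 1 or 64, the scaling to quantile or cyclic loess, the filter to none or the lowest 60%, left out the intensity trend or each array in turn, or added a block.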

Additional observations from a re-analysis of the deposited data

How the results depend on the processing

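The number of arrays, 2 per group, limits every value. Where an array was left out, the lone array of its group was assumed to vary like the other group. With the replicate number as a block 1512 probe sets passed for the siRNA, against 0, and 4862 had an unadjusted p under 0.05, against 2225. Then Scarb1 (adjusted p = 0.00589 and 0.00925 by limma for its probe sets), Abcg1 (0.00515) and Abca1 (0.0231) passed, with 10 pathway genes. For the contrast of numbers, with the siRNA as the block, 1064 passed and 3967 had an unadjusted p under 0.05. Arrays of the same number deviated together from their group means (r = 0.548 across probe sets), but no label ties a number to a shared culture, so this pairing is a hint from the data. For the numbers 2 probe sets passed here, and 0 after quantile or cyclic loess scaling, with the lowest 60% left out or without the intensity trend. Without the filter 2137 had an unadjusted p under 0.05 for the numbers, against 1354, and 32 pathway genes were higher by siRNA, against 21. Member genes higher without overlap numbered 1 after quantile or cyclic loess scaling or with the lowest 60% left out. Leaving out 1 array in turn gave 871 to 3596 probe sets with an unadjusted p under 0.05 for the siRNA and 792 to 2655 for the numbers, of which 2 to 59 passed. By siRNA the range was -0.80 to 1.49 for Cd36, -0.09 to 0.53 for the brightest Vldlr probe set and -0.14 to 0.08 for the dimmest of Abca1. By number it was -0.21 to 1.01 for Abcg1, -0.26 to 0.75 for Abca1 and -0.00 to 0.43 for Lipe. Cd36 by number passed without the second Runx2 siRNA array (adjusted p = 0.0407) and without the second control array (0.0273), and its adjusted p ran from 0.000203 with the block to 0.279 without the intensity trend. Differences by siRNA of the other tested member probe sets, and by number of the other brightest ones, kept their sign under each alternative whose filter they passed. Number differences of the dimmer probe sets were not recomputed. The cause of these changes was not tested.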
